A study of Mus musculus with 3 samples.

Results

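TFAP2A binding was described at 7 genes that move or place melanosomes, the pigment organelles of melanocytes. The genes were Rab27a, Mlph, Myo5a, Sytl2, Rab32, Rab38 and Mreg, taken from 22367 protein-coding genes for their role in transport, with earlier results of these data, the strong Mlph peak among them, already known. Every TFAP2A peak whose summit lay in 1 of these gene bodies or within 100 kb of it was taken, giving 45 of 18528 peaks in replicate 1 and 52 of 21459 peaks in replicate 2. The peaks came from ChIP-seq of melan-a cells, an immortalised melanocyte line from normal embryonic mouse skin with the genotype Cdkn2a tm1RDp/tm1RDp. The cells were untreated and were grown with a phorbol ester and cholera toxin. The series held 3 samples that all share this line and genotype, namely 2 independent ChIP experiments with the AP-2alpha (3B5) antibody and 1 input. Each ChIP replicate had its own peak list, no input values were analysed here, and read depth was unknown.

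TFAP2A is a transcription factor that binds GC-rich palindromic DNA and is active in neural crest derivatives, melanocytes among them. In a melanocyte, melanosomes reach the cell periphery when the small GTPase RAB27A on the melanosome recruits melanophilin (encoded by Mlph), which in turn recruits the actin motor myosin Va (encoded by Myo5a). Loss of any of the 3 proteins leaves melanosomes clustered around the nucleus and dilutes coat colour in mice. SYTL2 is another RAB27A effector that acts at the plasma membrane, RAB32 and RAB38 bring pigment enzymes to maturing melanosomes, and MREG (melanoregulin) acts in melanosome movement and transfer.

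The DNA at the summit of the strongest peak that both replicates shared is shown for each gene, because the comparison of the 7 genes rests on these regions. Each line holds 101 bases of the plus strand of mm9, centred on the replicate 1 summit, and capitals mark a match to the TFAP2 consensus GCCNNNGG on either strand.
Mlph, intron 1, chr1:92814946-92815046: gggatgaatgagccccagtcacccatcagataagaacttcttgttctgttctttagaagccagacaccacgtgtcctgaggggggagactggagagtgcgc
Myo5a, intron 1, chr9:74925262-74925362: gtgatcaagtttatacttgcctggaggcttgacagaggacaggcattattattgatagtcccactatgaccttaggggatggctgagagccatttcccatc
Rab38, intron 1, chr7:95592794-95592894: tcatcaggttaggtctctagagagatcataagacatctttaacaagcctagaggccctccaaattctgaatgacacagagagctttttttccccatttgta
Rab32, upstream, chr10:10297366-10297466: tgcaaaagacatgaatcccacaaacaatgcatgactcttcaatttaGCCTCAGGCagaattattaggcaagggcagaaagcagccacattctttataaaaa
Rab27a, upstream, chr9:72833220-72833320: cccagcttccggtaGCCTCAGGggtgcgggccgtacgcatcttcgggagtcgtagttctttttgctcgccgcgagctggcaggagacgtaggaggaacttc
Sytl2, intron 3, chr7:97519170-97519270: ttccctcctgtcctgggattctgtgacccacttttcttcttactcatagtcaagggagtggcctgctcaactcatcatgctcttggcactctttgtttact
Mreg, upstream, chr1:72272951-72273051: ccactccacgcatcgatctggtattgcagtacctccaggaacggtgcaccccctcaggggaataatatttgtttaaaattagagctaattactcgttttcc

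Only the Rab32 and Rab27a windows held a match. At Rab32 a pair of overlapping matches, which together spell GCCTCAGGC, lay at the summit itself. At Rab27a the match lay 32 bp from the summit.

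All 7 genes had at least 1 peak that overlapped a peak of the other replicate by 1 bp or more, called shared below. Over all protein-coding genes, 71.7% had a shared peak within 100 kb, so this count says little about the 7. Counted on replicate 1, there were 38 shared peaks, of which 8 lay at Mlph, 3 at Myo5a, 3 at Rab27a, 6 at Sytl2, 11 at Rab32, 5 at Rab38 and 2 at Mreg. At least as many shared peaks lay within reach of 1.68% of protein-coding genes for Rab32, 5.65% for Mlph, 12.8% for Sytl2, 19.4% for Rab38, 39.8% for Myo5a and Rab27a and 54.3% for Mreg. Another 7 peaks were found in replicate 1 only and 15 in replicate 2 only. The farthest shared peak that counted lay 99.95 kb from Rab32 (9.63-fold in replicate 1 and 12.0-fold in replicate 2), and the nearest that did not lay 104.7 kb from Mlph (3.05-fold and 3.47-fold). The next one outside, 114.5 kb from Sytl2, had 12.1-fold and 12.5-fold enrichment, about as much as the strongest Sytl2 peak inside the limit.

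The strength of a peak is given by its fold enrichment over background, as the peak caller wrote it. Means and SDs were taken over the 36 pairs in which each peak was the largest overlap of the other. Of these pairs, 10 (27.8%) had a mean enrichment of at least 10, against 19.5% of 16069 pairs in the genome. The median over the 36 pairs was 5.98, and the median over all pairs was 6.23. The binding at these genes was thus uneven: most peaks were ordinary, and a few were among the strong ones. The map of peaks by gene shows this.

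**Figure D1:**
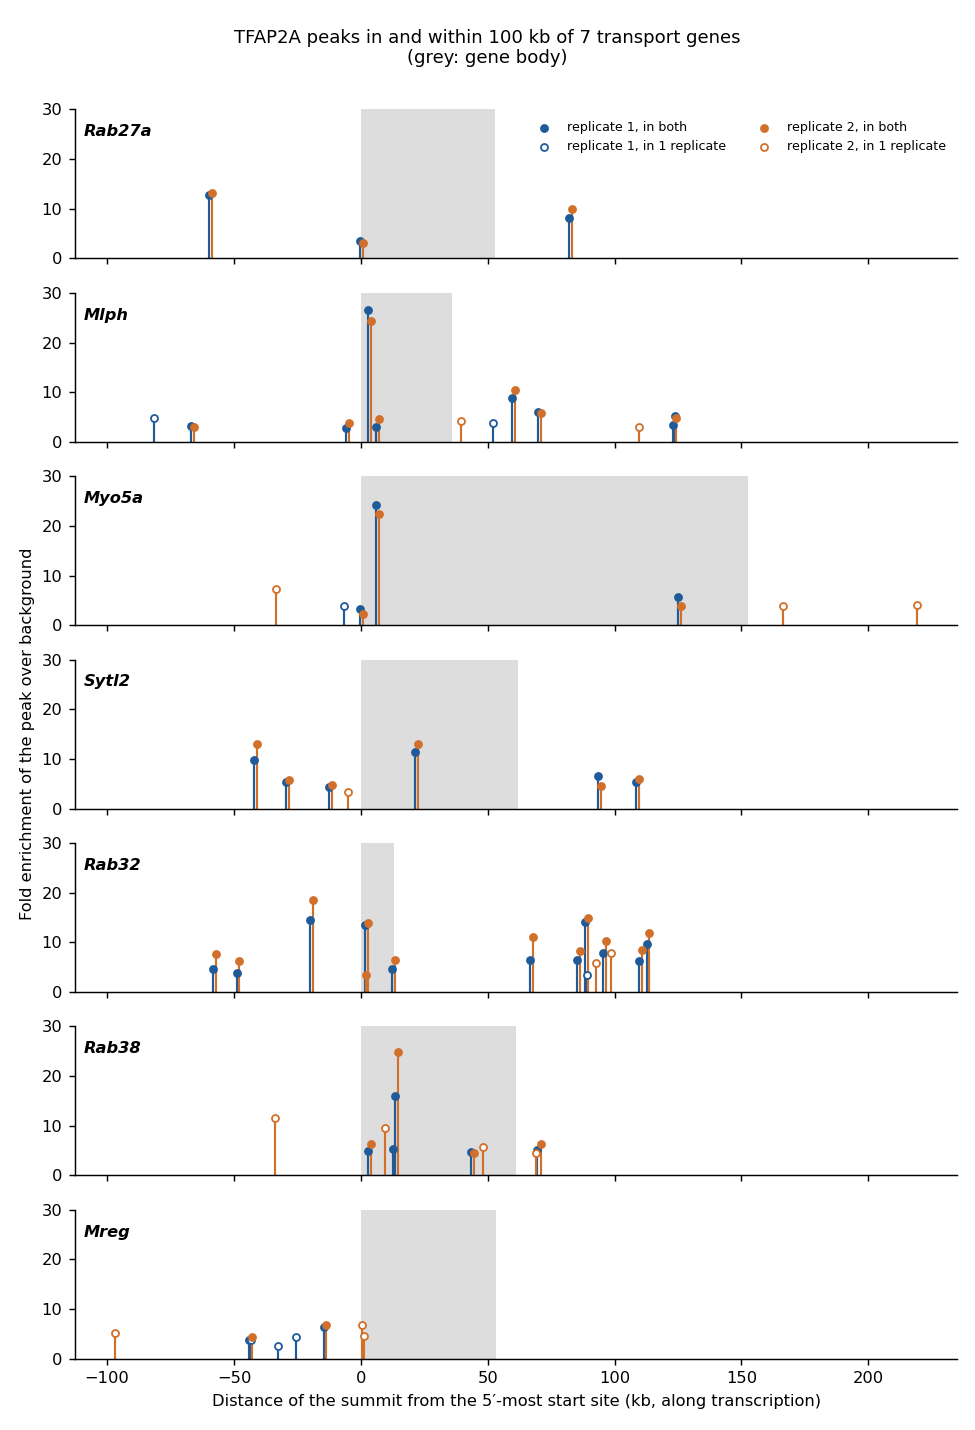
Fold enrichment of every TFAP2A peak (vertical axis) against the distance of its summit from the 5′-most start site of the gene in kb (horizontal axis), for replicate 1 (blue) and replicate 2 (orange), drawn slightly apart. Filled points were shared and open points were found in 1 replicate, grey marks the gene body, and the tall peaks of Mlph, Myo5a and Rab38 stand in their first introns.

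Rab27a encodes the GTPase that marks the melanosome for transport. Its strongest shared peak (chr9:72833026-72833682) had an enrichment of 12.7 in replicate 1 and 13.2 in replicate 2, averaging 13.0 ± 0.404 (SD, n = 2). This peak lay 59.4 kb upstream of Rab27a and only 34 bp from the start site of another gene, Ccpg1. The peak nearest to the Rab27a start lay 209 bp downstream of it, in intron 1, and was weak in both replicates (3.50-fold and 3.07-fold). The window of its replicate 1 summit is printed because it held 3 matches to GCCNNNGG, a pair of which overlap in a palindrome. At their replicate 1 summits the strong intronic peaks of the other genes held none. At the replicate 2 summit the window of this Rab27a peak held 2.
Rab27a start site, chr9:72892831-72892931: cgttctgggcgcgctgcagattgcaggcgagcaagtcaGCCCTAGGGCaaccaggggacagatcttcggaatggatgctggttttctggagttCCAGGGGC

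The remaining Rab27a peak lay 82.7 kb downstream of the start, nearest to Rsl24d1, with 8.08-fold enrichment in replicate 1 and 9.88-fold in replicate 2. Rab27a was therefore bound weakly at its own start and more strongly at a distance, at places nearer to other genes.

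Mlph encodes the linker between RAB27A and the motor. Its strongest shared peak (chr1:92813796-92815982 in replicate 1) had its summit in intron 1, 3.3 kb downstream of the start site. The enrichment was 26.5 in replicate 1 and 24.3 in replicate 2, averaging 25.4 ± 1.59 (SD, n = 2). The summits of the replicates were 22 bp apart. The peak was broad, at 2187 bp in replicate 1 and 1874 bp in replicate 2, which made it the 12th widest peak of either list. By the -log10 p of the peak caller it was 25th in replicate 1 (287) and 16th in replicate 2 (229). By enrichment it was 153rd and 198th, so it stood higher in both lists by the peak caller's p than by enrichment.

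The other shared peak inside Mlph also lay in intron 1, 6.5 kb from the start, and was weak (3.05-fold in replicate 1 and 4.68-fold in replicate 2). A shared peak 5.2 kb upstream of Mlph had 2.82-fold and 3.84-fold enrichment. The second strongest pair at Mlph lay 60.1 kb downstream of the start, nearest to Rab17, with 8.85-fold enrichment in replicate 1 and 10.4-fold in replicate 2. The strongest Mlph peak was 2.65 times as enriched as that second one in the mean of the replicates. Of the 8 shared peaks at Mlph, 5 were nearer to the start site of another gene than to Mlph.

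The study had also assayed a piece of Mlph intron 1 by ChIP-qPCR, and the primers place that amplicon within the strong peak. The forward primer ctcctttggcttttccttca and the reverse primer ggagcagatgagcagtgtga each matched mm9 once and bound a stretch of 119 bp in intron 1. The stretch lay inside the peak of both replicates, from 232 bp to 114 bp before the replicate 1 summit along the plus strand, and held 2 matches to GCCNNNGG. It is printed because it is the stretch of this intron that the study assayed. That assay also starts from TFAP2A ChIP, so it is not an independent measure of binding. Its result at Mlph was not read here.
Mlph amplicon, chr1:92814764-92814882: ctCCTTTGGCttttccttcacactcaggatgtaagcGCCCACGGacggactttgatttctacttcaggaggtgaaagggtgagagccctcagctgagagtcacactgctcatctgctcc

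Myo5a encodes the motor. Its strongest shared peak (chr9:74924772-74925954) was also in intron 1, 6.5 kb downstream of the 5′-most start site and 5.9 kb from the nearest annotated one. The enrichment was 24.2 in replicate 1 and 22.4 in replicate 2, averaging 23.3 ± 1.24 (SD, n = 2), and the -log10 p was 176 and 157. The Myo5a peak was thus close to the Mlph peak in enrichment and narrower, at 1183 bp and 924 bp. A weak peak lay at the start of Myo5a, in the 5′ UTR exon, with 3.24-fold enrichment in replicate 1 and 2.35-fold in replicate 2. The other lay in intron 32, with 5.75-fold and 3.80-fold. All 3 shared peaks of Myo5a lay in the gene body, and all 3 were lower in replicate 2.

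Sytl2 encodes a RAB27A effector that docks vesicles at the membrane. Its strongest shared peak (chr7:97518594-97519563) lay in intron 3, 22.0 kb downstream of the 5′-most start and 9.9 kb upstream of an internal one. The enrichment was 11.4 in replicate 1 and 13.0 in replicate 2, averaging 12.2 ± 1.16 (SD, n = 2). A pair of nearly the same strength lay 41.5 kb upstream, with 9.81-fold and 13.0-fold. The intronic peak was only 1.07 times as enriched as this one, so Sytl2 had no single leading peak.

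Rab32 and Rab38 encode related GTPases of cargo traffic to melanosomes, and their peaks were laid out differently. Rab32 had the most shared peaks of the 7 genes (11), or 5.16 for every 100 kb searched, a density that 0.760% of protein-coding genes reached. The strongest (chr10:10296991-10297793) lay 19.4 kb upstream, with 14.5-fold enrichment in replicate 1 and 18.5-fold in replicate 2, averaging 16.5 ± 2.84 (SD, n = 2). The next lay 88.8 kb downstream of the start, beyond the gene and nearest to 9130014G24Rik, with 14.0-fold and 15.0-fold. Inside Rab32, a peak in intron 1 had 13.6-fold and 13.9-fold, and a peak in the 3′ UTR exon had 4.58-fold and 6.44-fold. Rab32 thus had several peaks of like strength, and 6 of the 11 were nearest to the start site of another gene.

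At Rab38, 4 of the 5 shared peaks counted on replicate 1 lay in introns. The strongest (chr7:95592350-95593284) was in intron 1, 14.1 kb from the start, with 16.0-fold enrichment in replicate 1 and 24.8-fold in replicate 2, averaging 20.4 ± 6.23 (SD, n = 2). Its summits were 8 bp apart, so the replicates matched in place and differed in strength. A second replicate 1 peak in intron 1 (5.23-fold, 13.4 kb from the start) fell under the same replicate 2 peak and was given no pair. The other intronic pairs were weak, with 4.87-fold and 6.34-fold enrichment at 3.5 kb, and with 4.63-fold and 4.50-fold at 44.0 kb in intron 2. Rab38 also had 4 peaks in replicate 2 only, of which 1, 34.3 kb upstream, was the strongest single-replicate peak of the 7 genes (11.5-fold).

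Mreg, whose product acts in melanosome movement and transfer, had the weakest of the strongest shared peaks. Its median enrichment over pairs (5.33) was above those of Mlph (4.04) and Myo5a (4.77) and below those of the other genes. Its strongest shared peak (chr1:72272798-72273238) lay 14.1 kb upstream, with 6.40-fold enrichment in replicate 1 and 6.82-fold in replicate 2, averaging 6.61 ± 0.297 (SD, n = 2). Mreg was the only 1 of the 7 genes with no shared peak in its body. Replicate 2 alone had a peak 31 bp upstream of the Mreg start (6.90-fold) and another in intron 1, 800 bp downstream of it (4.59-fold). The peak list of replicate 1 held neither. The strongest peak found in replicate 1 only, at all 7 genes, was 4.81-fold and lay 80.8 kb upstream of Mlph.

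The strong Mlph peak was then set beside the strongest peak of each other gene. It had been singled out for its strength, so the differences are a description and were not tested. In replicate 1 the Mlph peak was the strongest, at 1.10 times Myo5a, 1.66 times Rab38, 1.83 times Rab32, 2.09 times Rab27a, 2.33 times Sytl2 and 4.15 times Mreg. In replicate 2 it was 1.08 times Myo5a but 0.979 times Rab38, so there the Rab38 peak was the stronger. Mlph lay above Myo5a in both replicates, by a small ratio each time, and Rab32, Rab27a, Sytl2 and Mreg lay below both of them in either replicate. Only the place of Rab38 in this order changed between the replicates.

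By -log10 p the Mlph peak stood farther from the rest. It had 1.63 times the value of the Myo5a peak in replicate 1 and 1.46 times in replicate 2. Against the Rab38 peak the ratios were 4.79 and 2.30. A -log10 p grows with the number of reads under a peak as well as with its enrichment, and these read numbers were not analysed here. The Mlph peak also had the most matches to GCCNNNGG of the 7 strongest peaks (8, some of them overlapping pairs), but it was the longest too. Per kb of peak it had 3.66 matches, against 10.7 at Rab27a, 4.12 at Sytl2, 2.49 at Rab32, 1.07 at Rab38, 0.845 at Myo5a and none at Mreg.

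**Figure D2:**
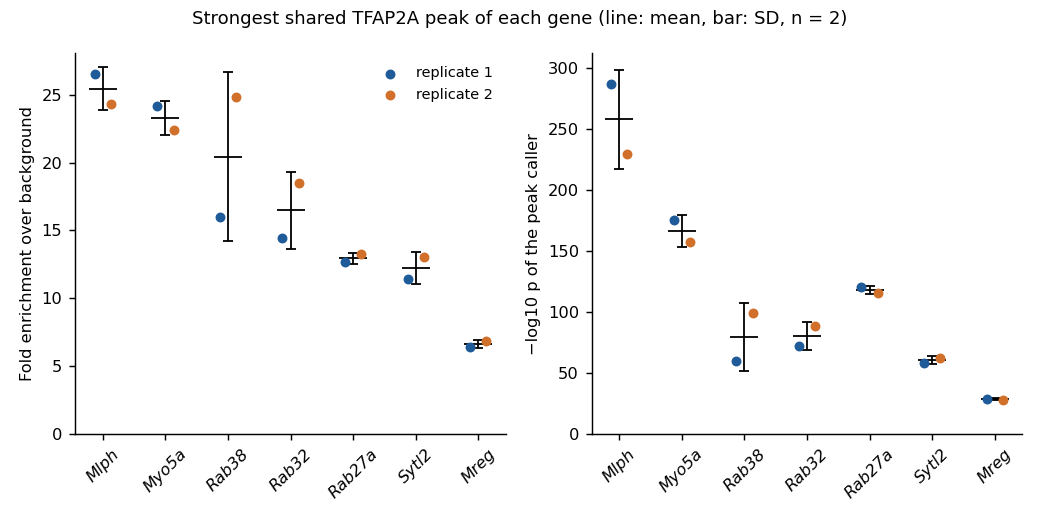
Fold enrichment (left) and -log10 p (right) of the strongest shared peak of each gene, with points for replicate 1 (blue) and replicate 2 (orange), a line for the mean and a bar for the SD (n = 2). Mlph and Myo5a lie close together in enrichment, Rab38 spans from 16.0 to 24.8, and Mlph stands above all others in -log10 p in both replicates.

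To read these values against the genome, the strongest shared peak within 100 kb was found for every protein-coding gene. A peak at least as enriched as that of Mlph was within reach of 1.25% of genes. For the peak of Myo5a the share was 1.85%, for Rab38 3.24%, for Rab32 6.99%, for Rab27a 14.1%, for Sytl2 16.5% and for Mreg 51.9%. The median over the 7 genes was 16.5, and the median over all genes, counting those without a peak as 0, was 6.82. Of the 16047 genes that had a shared peak at all, 11599 had one at least as enriched as that of Mreg, so the Mreg peak was weaker than most. The other 6 genes lay above the median.

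**Figure D3:**
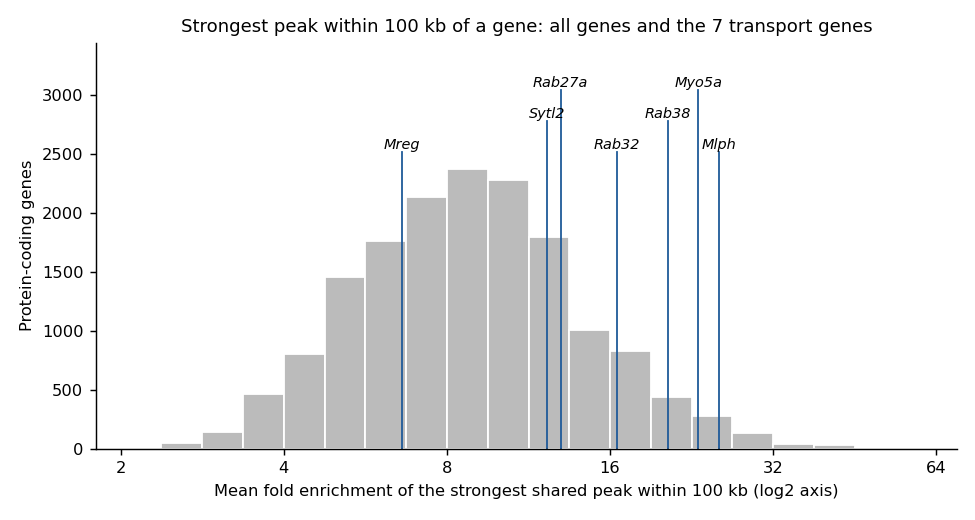
Number of protein-coding genes (vertical axis) by the mean fold enrichment of their strongest shared peak within 100 kb (horizontal log2 axis), with blue lines at the 7 transport genes. Mreg lies at 6.61, within the bulk of genes that have a peak but lower than most of them, and Mlph lies at 25.4 in the right tail.

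Most of the 7 genes were bound inside the gene. A shared peak in the body was present in 6 of 7, against 20.9% of protein-coding genes, a share not matched for gene length. Rab27a counted only through a weak peak (3.50-fold in replicate 1 and 3.07-fold in replicate 2). A shared peak with a mean enrichment of at least 10 lay in the body of 5 of 7 (Mlph, Myo5a, Sytl2, Rab32 and Rab38), against 5.65% of all genes. The Mlph peak was known when the genes were chosen, and without Mlph the count is 4 of 6. Among genes no shorter than the shortest of the 7 (13223 bp) and no longer than the longest (152674 bp), the share was 7.25%. The level of 10 and the length range were chosen after the values were seen, and all 5 of these peaks lay in an intron. A shared summit between 5 kb before and 1 kb after a start site was present at 2 of 7 genes (Myo5a and Rab27a), against 17.0% of protein-coding genes. With 7 genes this count is not told apart from the background, and both peaks were under 4-fold in either replicate.

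The replicates differed in strength from gene to gene. Over the 36 pairs, 27 (75%) were stronger in replicate 2, against 57.8% of all pairs in the genome. At Rab32 all 11 pairs were stronger in replicate 2, by 1.02 to 1.74 times. At Myo5a all 3 were weaker, with ratios of 0.661 to 0.927. At Mlph 4 of 7 were stronger in replicate 2, and its strongest peak was weaker (0.915 times). What sets these differences was not tested.

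**Figure D4:**
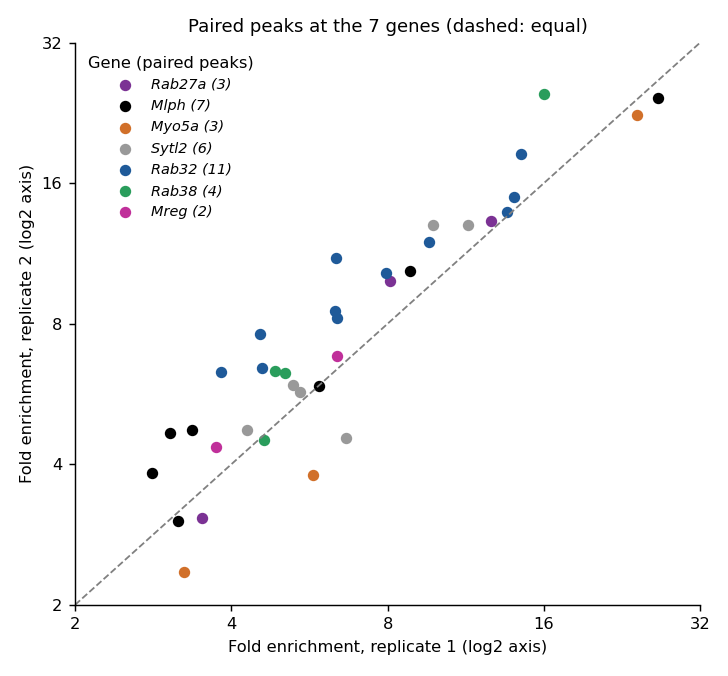
Fold enrichment in replicate 2 against replicate 1 (both log2 axes) for the 36 paired peaks, coloured by gene, with the number of pairs in brackets and a dashed line where both are equal. The 11 Rab32 pairs lie above the line and the 3 Myo5a pairs below it.

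The TFAP2 consensus was found at a smaller share of these summits than of all summits, a difference that was not tested and that depended on the window. Of the 38 shared peaks, 12 (31.6%) had GCCNNNGG no more than 50 bp from their summit, against 57.1% of 16099 shared peaks on the assembled chromosomes. In windows of the same length 400 bp to the left and to the right of the 38 summits there were 4 and 9 with a match, and over all shared peaks 15.3% of such windows had one. The gap to the background closed in wider windows, since within 100 bp of the summit 27 of 38 (71.1%) held a match, against 70.6% of all. With the summits of replicate 2 the share within 50 bp was 16 of 37 (43.2%), against 60.1% of 16270 shared replicate 2 peaks. Member summits lay a median of 34 bp apart between replicates, against 24 bp over all pairs. Single peaks changed in either direction. At the intronic Sytl2 peak the replicate 1 summit had no match within 50 bp, and the replicate 2 summit, 75 bp away, had 3. At a Rab32 peak 67.1 kb downstream of the start, the replicate 1 summit had 2 and the replicate 2 summit none. The strongest Mlph, Myo5a and Rab38 peaks had none at either summit. Whether summit placement sets the share was not tested.

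Of the 10 pairs with a mean enrichment of at least 10, 3 had a match within 50 bp, against 61.0% of such peaks in the genome. The nearest match lay 82 bp from the summit at Mlph, 75 bp at Myo5a, 61 bp at Sytl2 and 369 bp at Rab38, and the Mreg peak held none. The summit windows printed above were also read for looser forms of the site, chosen after they were seen. CCTGAGG at Mlph, CCTTAGG at Myo5a and CCTCAGG at Mreg have the inner letters CCNNNGG without the outer G. GCCTGGAGG, also at Myo5a, and GCCTAGAGG at Rab38 have a gap of 4 in place of 3 (GCCNNNNGG). The Sytl2 window held neither form. CCNNNGG was present within 50 bp in 20 of 38 peaks (52.6%, against 72.3% of all) and GCCNNNNGG in 14 (36.8%, against 52.5%), and every window with a longer form also counts for CCNNNGG where it contains those letters. The looser forms were thus also at a smaller share of these peaks than of all peaks.

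**Figure D5:**
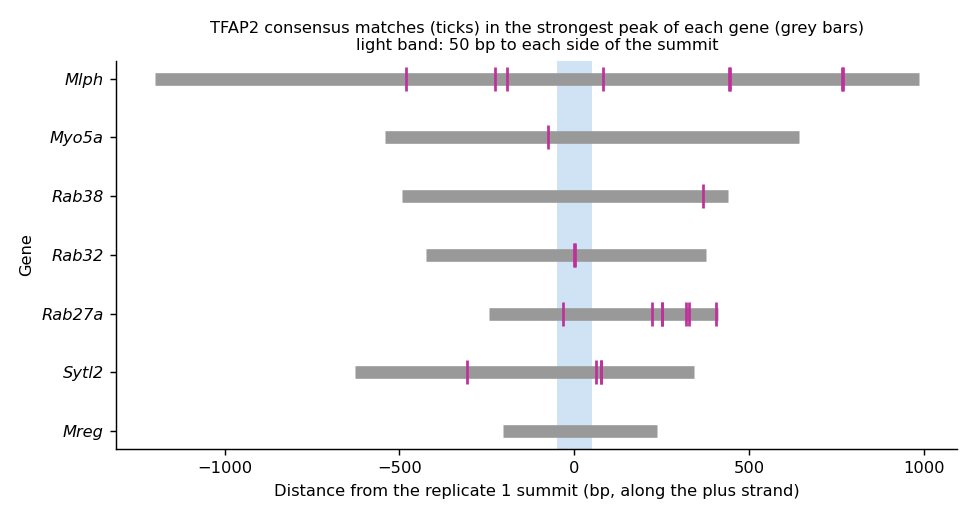
Matches to GCCNNNGG (ticks) along the strongest shared peak of each gene (grey bars, from start to end of the replicate 1 peak), by distance from the replicate 1 summit in bp, with a light band over 50 bp to each side. Only the Rab32 and Rab27a bars have a tick in the band, and the Mlph bar is the longest with 8 matches.

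Sites of other factors were searched in the same windows. The E-box CACGTG is bound by MITF, the master regulator of melanocytes, and by many other factors of its class. It lay in 3 of 38 windows (7.89%, against 1.78% of all shared peaks), and the window of the strong Mlph peak was 1 of them. The M-box TCATGTG was also in 3 (7.89%, against 2.01%). In the windows 400 bp to the left and to the right of the 38 summits, the E-box was in 0 and 1 and the M-box in 2 and 0. The AP-1 site (TGACTCA or TGAGTCA) was in 3 (7.89%, against 6.36%), the TEAD site GGAATG in 2 (5.26%, against 10.5%) and the SOX site (ACAAAGG or ACAATGG) in 2 (5.26%, against 5.21%). Each count is 3 or fewer of 38, and none of the differences was tested. In RefSeq promoters of GRCm38.p6, which run from 250 bases before to 50 after a start, a match to GCCNNNGG was present in 1 of 1 for Mlph, 1 of 1 for Myo5a, 1 of 2 for Rab27a, 0 of 1 for Rab32 and 2 of 2 for Mreg, against 54.8% of 32851 promoters. No promoter sequence was listed for Rab38 or Sytl2, so none was searched for these genes.

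The rest of the pathway was read from a list of 42 other genes of melanosome transport. Of these, 34 (81.0%) had a shared peak within 100 kb, against the 71.7% above, and 10 (23.8%) had one near a start site, against the 17.0% above. A peak of at least 10-fold lay in the body of 5 of 42 (11.9%, against the 5.65% above). The median strongest enrichment was 9.42, between that of the 7 genes and that of all genes. By role, 10 of 11 motors and motor subunits, 8 of 9 other Rab GTPases, 8 of 11 Rab regulators and partners, 5 of 8 RAB27 effectors and all 3 actin assembly genes had a shared peak.

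The 5 strongest of the list were Rab17, Fmn1, Spire1, Rab11b and Sytl1. Rab17 owed its place to the strong Mlph peak itself, since it lies next to Mlph. Fmn1 and Spire1, which nucleate actin filaments, had 21.5 ± 1.84 and 20.0 ± 4.13 (mean fold enrichment ± SD, n = 2). The Spire1 peak lay in the gene, while the Fmn1 peak lay outside it and was nearest to Grem1. Fmn1 also had 16 shared peaks inside the gene, of up to 12.5-fold mean enrichment, and one near a start site. The values for Rab11b, a GTPase of recycling endosomes, and for Sytl1, a RAB27 effector like Sytl2, were 18.6 ± 3.83 and 18.0 ± 0.702, and both peaks lay outside those genes, nearest to Angptl4 and to Wdtc1. No shared peak was within 100 kb of Myo5b, Rab1a, Chm, Chml, Rilpl1, Rph3al, Sytl4 and Sytl5. Among the synaptotagmin-like effectors of RAB27, Sytl2 was thus the one with a strong peak inside the gene, and Sytl3 had intragenic peaks of up to 5.82-fold.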

How the data were processed

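TFAP2A ChIP-seq peaks of melan-a cells were analysed in 2 replicates. The submitters' processing notes name BWA, MACS 1.4.2 and mm9. Which did what, and with which settings, is not stated. The deposited lists carry q-values and summit offsets in a layout that later MACS versions write, so the version behind the enrichment and p-values could not be checked. The authors deposited 1 list per replicate, in which each peak has a fold enrichment (a ratio over background), a -log10 p, a -log10 q and a score. The deposited score was the -log10 p times 10 without decimals in every peak and was not used. No input values were analysed, and depth is unknown, so a peak missing from 1 list may reflect depth.

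Genes were those of GENCODE mouse version 1 (mm9, Ensembl release 65), and introns were read from the coding transcript of greatest span. Distances run from the 5′-most start site. Strings were sought on either strand, up to 50 bp from replicate 1 summits. For Rab1a and Rab29 the older symbols Rab1 and Rab7l1 were used. Named peaks were, for each gene, the strongest shared peak, every shared peak in the gene body and every one near a start site. The strongest single-replicate peaks were named as well. From the wider list the 5 strongest genes and those without a peak were named. Other peaks named were chosen after their values were seen. The members and lists were chosen with earlier results of these data known. With 1 group of 2 replicates no test between groups was possible, and percentages over genes or peaks describe these 2 libraries.

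Python 3.11.15, numpy 2.4.6, pandas 2.3.3, pysam 0.24.0, samtools 1.23.1 and matplotlib 3.10.9 were used. In a test on simulated data, all 12966 planted partners among 18528 replicate 1 peaks and all 1003 planted strings in 2000 windows were recovered.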

Additional observations from a re-analysis of the deposited data

How the results depend on the processing

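The 38 shared peaks became 15 with a reach of 10 kb and 21 when only those nearest to the gene's own start site were kept, and each replicate alone gave 45 to 52. A reach of 50 kb, a -log10 q of at least 5, a reciprocal overlap of 50%, summits within 100 bp and counting on replicate 2 left the count within 1.5 times. The ratio of the strongest Mlph peak to the next gene was 1.09 (next Myo5a), 1.55 by -log10 p, and 0.979 to 1.10 with 1 replicate left out, where the value below 1 came from leaving out replicate 1 (next Rab38). Genes with a peak near a start numbered 2 to 3 with 1 replicate left out and 1 at a -log10 q of at least 5. Summits with a TFAP2 match, 12 of 38, became 4 for GCCNNNGGC, 20 for CCNNNGG and 27 within 100 bp, and 12 to 16 by replicate. The share of genes with a peak as strong as that of Mlph, 1.25%, was 0.769% within 50 kb, 0.384% within 10 kb, and 1.30% to 1.67% with 1 replicate left out. Genes of the wider list with a peak, 34, became 16 within 10 kb and were 34 to 39 by replicate. The causes of these changes were not tested, beyond the smaller reach or window itself. No paired analysis was possible because only 1 group had peak lists. CCNNNGG and GCCNNNNGG were chosen after seeing the data. The unknown depth limits what a peak missing from a list can show.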

Other observations

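The wider transport list held further peaks close to genes of pigment cells or of the motor complexes, chosen here after their values were seen. The strongest shared peak within reach of Spire2, an actin nucleator, lay 2.7 kb upstream of Mc1r, the melanocortin receptor gene, with 10.0-fold enrichment in replicate 1 and 10.7-fold in replicate 2. Dync1i2, a dynein intermediate chain gene, had 1 shared peak, in its body, with 12.7-fold and 13.5-fold. Tbc1d10a, whose product inactivates RAB27A, had 14 shared peaks within 100 kb, 3 of them in its body. Rab27b, the paralog of Rab27a, had 1 shared peak, of 6.53-fold and 7.29-fold, nearest to Ccdc68. Myo5c, next to Myo5a, had within reach as its 1 shared peak the weak Myo5a peak of intron 32.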
